A study of Homo sapiens with 2 samples.

Results

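The genes described here build 2 parts of the nuclear border, the nuclear pore complexes and the lamina with its membrane anchors. They were chosen by name: probe sets whose single gene symbol was NUP followed by digits and an optional suffix, or 1 of 19 named genes, from LMNA to BANF1. This gave 43 genes of 19775 on the array, read by 107 of 54613 probe sets. Of these, 32 are nucleoporins or carry a nucleoporin name, and 11 encode lamins, inner nuclear membrane proteins, a chromatin partner of these, or the LINC complex.

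The measured cells were hTERT-RPE1, a human retinal pigment epithelial line made immortal with telomerase, grown with 10% fetal bovine serum and hygromycin B. One culture received an oligo of miR-129-3p and the other a control oligo, both with a lipid reagent, and RNA was taken after 72 h. Each was read on 1 Affymetrix array, so no value has a replicate error, no difference was tested, and each difference compares these 2 arrays rather than the conditions. The labels call the miR-129-3p culture an overexpression; the level reached was not analysed here, and the sources used here give neither the oligo dose nor the control sequence.

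Nuclear pores are rings of many protein copies that span the nuclear envelope. A scaffold of Y-shaped complexes and an inner ring holds a channel of disordered proteins, filaments reach into the cytoplasm, and a basket faces the nucleoplasm. Under the inner membrane, A-type and B-type lamins form a filament mesh that is bound by membrane proteins such as emerin and the LAP2 proteins. SUN and nesprin proteins pair across both membranes as the LINC complex, which couples the lamina to the cytoskeleton. The scaffold of the pore is long-lived, and both structures are taken apart and rebuilt at mitosis in human cells.

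MicroRNAs pair with messages mainly through the seed, bases 2 to 8. In humans 2 loci yield a mature miR-129-3p, shown here with the seed in capitals because it is the part of the oligo that would recognise messages. Sequences are from RefSeq on GRCh38.p14, written 5′ to 3′, and the labels do not say which of the 2 was used.
hsa-miR-129-1-3p, chr7:128207920-128207941, plus strand: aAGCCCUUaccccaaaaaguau
hsa-miR-129-2-3p, chr11:43581450-43581471, plus strand: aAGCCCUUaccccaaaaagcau
Both share the seed AGCCCUU and differ by U20C, counted from 1 at the 5′ end with the miR-129-1-3p base first. No message sequences of the members were at hand, so pairing of this seed with them was not analysed here.

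Over the arrays, the median signal was 98.0 with miR-129-3p and 96.5 in control, and the share of probe sets at 100 or above was 49.4% with miR-129-3p and 48.9% in control. Of 13 markers of retinal pigment epithelium, 7 reached 100 on at least 1 array, while RPE65, RLBP1, BEST1, TYR, SERPINF1 and LRAT stayed under it on both. The summed signal of the 13 was 12062 with miR-129-3p and 17778 in control. OTX2 read 1625 with miR-129-3p and 1452 in control, MITF 1020 with miR-129-3p and 2470 in control, and KRT18 2972 with miR-129-3p and 5787 in control. PMEL read 229 with miR-129-3p and 114 in control, and PAX6 871 with miR-129-3p and 1387 in control. TTR read 110 with miR-129-3p and 91.0 in control, and reached 100 only on the miR-129-3p array. KRT8 read 4917.5 with miR-129-3p and 6138.5 in control. KRT8 and KRT18 had the highest signals of the 13 on both arrays, so they weigh most in the sum. Of 5 blood cell markers 1 reached 100 and of 4 neuronal and glial markers 3 did, with summed signals of 366 and 430 with miR-129-3p, and 357 and 371 in control. The part of these marker differences in the results below was not tested.

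On the miR-129-3p array, signals of several lamina genes were lower, while those of nearly all pore genes were close to control. A signal filter of 100 on whichever array was brighter left 40 members. Of these, 5 were lower on the miR-129-3p array by 1.5-fold or more, and all 5 were among the 11 lamina, membrane and LINC genes: LMNB1, TMPO, SUN2, EMD and LMNB2. Of the 29 pore genes that passed it, 1 was at least 1.5-fold higher, NUP160, and 0 were lower. Differences are given on the scale of log2(signal + 16), miR-129-3p minus control, and this scale understates those of dim genes. Over all 12754 genes that passed the same filter, 10.8% were at least 1.5-fold lower and 17.3% at least 1.5-fold higher. The members' share of lower genes, 12.5%, is close to that background, and their share of higher genes, 2.50%, is under it. At 2-fold, 3 members were lower and 0 higher, against 4.56% lower and 7.83% higher over all genes.

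The median difference was -0.48 for the 11 lamina, membrane and LINC genes and -0.03 for the 29 pore genes, against 0.03 over all genes. The quartiles of the pore genes were -0.27 and 0.06, and those of all genes -0.25 and 0.39. Within 1.5-fold were 28 of 29 pore genes (96.6%) and 6 of 11 lamina, membrane and LINC genes (54.5%), against 71.9% of all genes. The split by structure and these lists were made with results of these arrays known, so the counts describe the members and no more. In RNA from whole cultures, fewer cells that express a gene and less RNA per cell cannot be told apart.

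**Figure D1:**
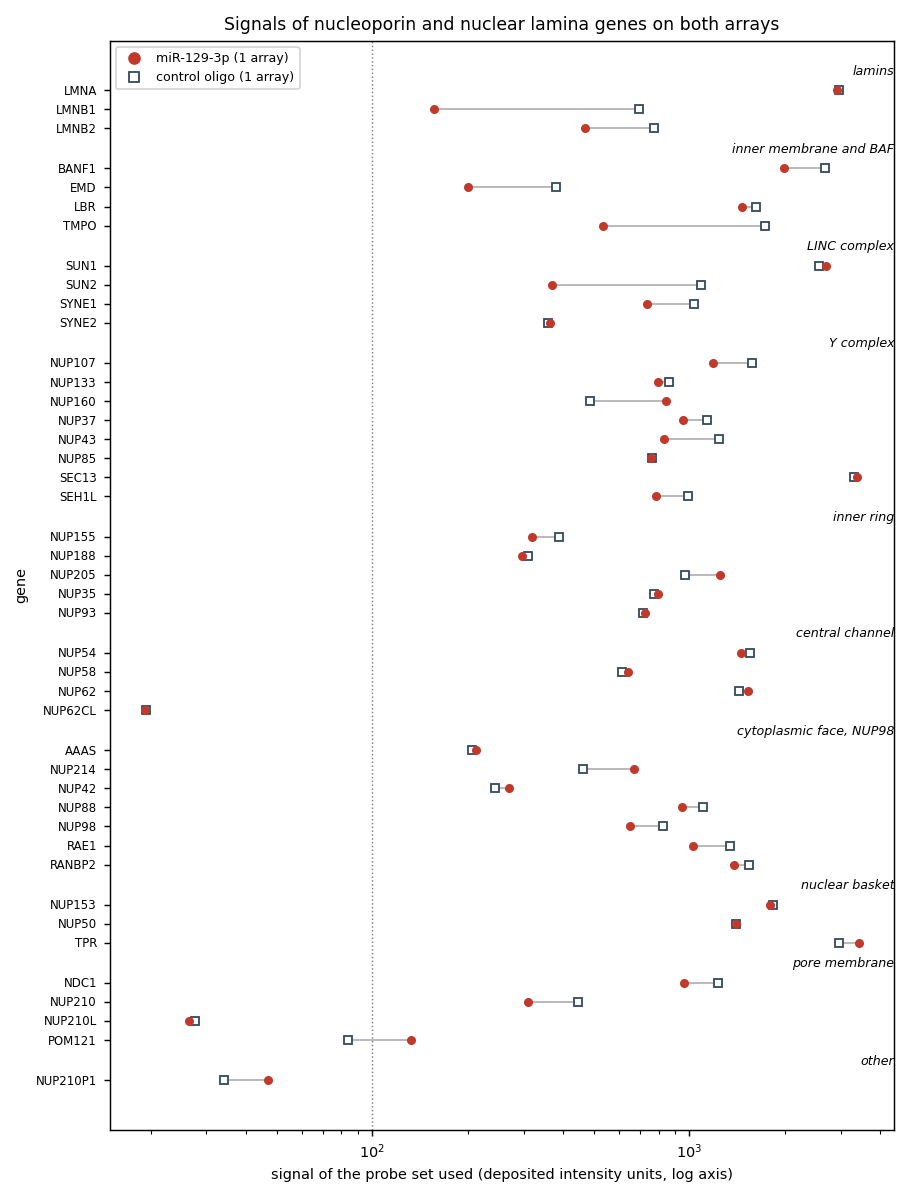
Signal of each of the 43 genes on the miR-129-3p array (red circles) and the control array (open squares), in the units of the deposited intensities on a log axis, grouped by structure; each point is 1 array and the dotted line marks the signal filter of 100. LMNB1, TMPO, SUN2, EMD and LMNB2 have their red circle well left of the square, NUP160 has it to the right, and most pore genes have both close together.

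Among the lamins, the B-type genes were lower and the A-type gene was not. LMNB1 encodes lamin B1, a B-type lamin that stays attached to the membrane and is known to decline in senescent human cells. It had a signal of 156 with miR-129-3p and 693 in control, a difference of -2.04 (4.11-fold lower), the lowest of all members. LMNB2, which encodes the other main B-type lamin, read 470 with miR-129-3p and 773 in control, a difference of -0.70 (1.62-fold lower). Each of these 2 genes has a single probe set here.

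LMNA encodes lamins A and C, which are made in most differentiated cells. Its probe set used here read 2925 with miR-129-3p and 2957 in control, a difference of -0.02. The 5 LMNA probe sets above the filter differed by -0.16 to 0.41, with none past 1.5-fold. The A-type gene thus stayed within 1.5-fold on every probe set, and both B-type genes lay past it.

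All 4 genes for proteins of the inner membrane and their chromatin partner were below 0. TMPO encodes the LAP2 proteins, of which the membrane forms bind B-type lamins and the soluble form binds A-type lamins in the nucleoplasm. It read 534 with miR-129-3p and 1734 in control on the probe set used, a difference of -1.67 (3.18-fold lower). A further probe set, above 100 on both arrays, read 467 with miR-129-3p and 1096 in control (-1.20). Another 2, at -1.16 and -1.08, passed the filter only through the control array, where they are high, and a dim one differed by -0.07. TMPO was the only one of the 5 lower members with more than 1 probe set above the filter.

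EMD encodes emerin, which binds lamins and BAF and is mutated in Emery-Dreifuss muscular dystrophy. It read 200.1 with miR-129-3p and 381 in control, a difference of -0.88 (1.84-fold lower), on a single probe set. BANF1, the gene of the DNA-bridging protein BAF that gathers chromatin as the envelope reforms, read 1994 with miR-129-3p and 2671 in control (-0.42). LBR, the lamin B receptor, which also acts in sterol synthesis, read 1463 with miR-129-3p and 1620 in control (-0.15). The last 2 were within 1.5-fold.

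The LINC complex genes did not move as 1 unit. SUN2, an inner membrane protein that binds lamins and nesprins, read 369 with miR-129-3p and 1087 in control, a difference of -1.52 (2.87-fold lower) on its single probe set. SUN1, its paralog, read 2689 with miR-129-3p and 2569 in control (0.07), and its 3 probe sets above the filter differed by -0.43 to 0.16. The giant nesprins link SUN proteins to actin and other filaments of the cytoskeleton. SYNE1, which encodes nesprin-1, read 737 with miR-129-3p and 1033 in control (-0.48). Its 3 probe sets above the filter lay between -0.48 and -0.17, and dim ones gave -0.68 and -0.56. SYNE2, nesprin-2, read 363 with miR-129-3p and 359 in control (0.01). Its other probe set above the filter gave -0.27 and passed only through the control array, where it is high. Dim SYNE2 probe sets lay between -0.47 and -0.02.

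Values of 2 genes used as markers of dividing cells are given beside these. MKI67, the gene of the Ki-67 proliferation antigen, differed by -2.17 to -1.10 over its 4 probe sets above the filter. Of these, 2 passed only through the control array, where they are high, among them the one at -2.17. The other 2 differed by -1.68 and -1.10. CCNB1, which encodes the mitotic cyclin B1, differed by -1.81 and -1.55 on its 2. These 2 genes were picked with their values known, and their part in the lower lamina signals was not tested.

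**Figure D2:**
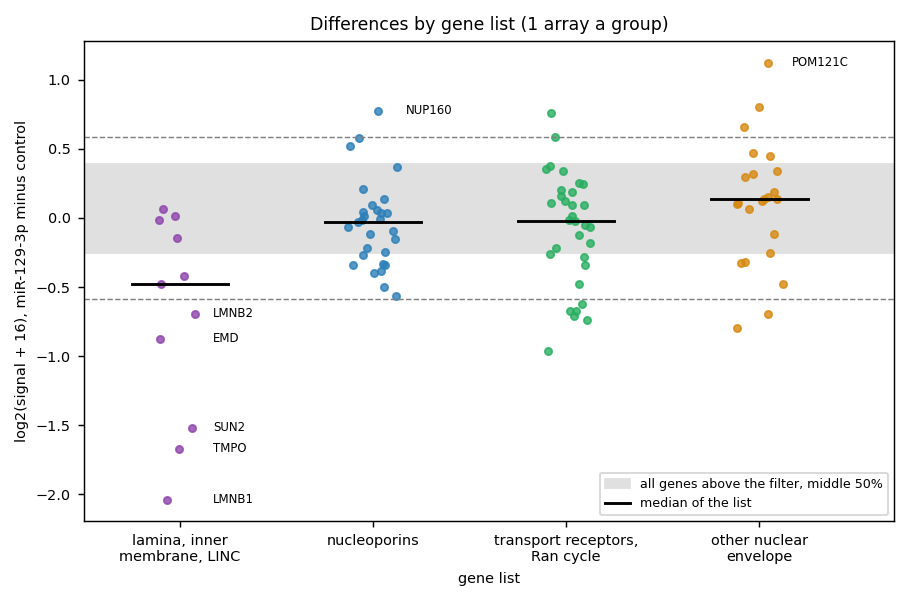
Difference on the log2(signal + 16) scale, miR-129-3p minus control, of every gene above the filter in 4 lists; each point is 1 gene, black bars are list medians, dashed lines mark 1.5-fold and the grey band spans the quartiles of all 12754 genes. The lamina, membrane and LINC genes reach down to -2.04, while the pore genes lie between -0.57 and 0.77.

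Promoter windows are shown for the 5 lower members, since these genes were lower together. Each runs from 250 bases before to 50 after an annotated start (RefSeq, GRCh38.p14), written 5′ to 3′ along the gene. For a gene with several windows the one with the most kinds of match is printed. Capitals mark matches on either strand to 4 motifs. These are the CCAAT box (CCAAT), bound by NF-Y, the CHR element (TTTGAA) of cell cycle promoters, an E2F site (TTCCCGCC), and the core of an interferon-stimulated response element (TTTCNNTTTC).
LMNB1, chr5:126776886-126777185, plus strand: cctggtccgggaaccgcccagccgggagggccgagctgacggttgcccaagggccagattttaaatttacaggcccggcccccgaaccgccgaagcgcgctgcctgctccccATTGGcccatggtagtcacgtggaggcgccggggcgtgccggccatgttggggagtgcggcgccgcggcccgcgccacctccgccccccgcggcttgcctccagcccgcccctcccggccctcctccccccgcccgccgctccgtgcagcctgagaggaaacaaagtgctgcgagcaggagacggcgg
TMPO, chr12:98515323-98515622, plus strand: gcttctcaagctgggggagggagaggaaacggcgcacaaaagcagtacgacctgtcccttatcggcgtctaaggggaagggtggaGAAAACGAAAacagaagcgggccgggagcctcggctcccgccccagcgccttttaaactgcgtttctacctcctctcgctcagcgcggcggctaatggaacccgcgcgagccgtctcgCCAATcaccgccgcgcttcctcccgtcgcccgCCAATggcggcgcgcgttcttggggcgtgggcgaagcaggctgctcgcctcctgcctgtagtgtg
SUN2, chr22:38755949-38756248, minus strand: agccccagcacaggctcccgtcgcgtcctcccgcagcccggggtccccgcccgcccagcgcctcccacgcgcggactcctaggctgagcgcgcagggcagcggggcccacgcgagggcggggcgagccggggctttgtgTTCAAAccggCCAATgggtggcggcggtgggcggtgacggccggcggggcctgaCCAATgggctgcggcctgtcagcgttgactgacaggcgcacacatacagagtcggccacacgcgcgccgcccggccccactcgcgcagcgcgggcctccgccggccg
EMD, chrX:154379045-154379344, plus strand: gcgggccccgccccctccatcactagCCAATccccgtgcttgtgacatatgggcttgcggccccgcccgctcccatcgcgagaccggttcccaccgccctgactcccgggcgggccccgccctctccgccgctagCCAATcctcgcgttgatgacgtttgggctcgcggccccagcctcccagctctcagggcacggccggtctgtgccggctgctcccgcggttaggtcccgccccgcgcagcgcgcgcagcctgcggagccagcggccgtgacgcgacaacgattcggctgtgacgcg
LMNB2, chr19:2456910-2457209, minus strand: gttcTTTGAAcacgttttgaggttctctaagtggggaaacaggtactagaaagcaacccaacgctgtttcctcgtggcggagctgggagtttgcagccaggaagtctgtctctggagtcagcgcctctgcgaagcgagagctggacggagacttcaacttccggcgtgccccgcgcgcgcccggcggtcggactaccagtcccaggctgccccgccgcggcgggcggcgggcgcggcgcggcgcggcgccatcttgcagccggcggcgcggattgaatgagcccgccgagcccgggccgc
A CCAAT box stood in at least 1 window of 4 of these 5 genes, with LMNB2 the exception. Of the 35 other members above the filter, 33 had a window, and 14 of those (42.4%) held a CCAAT box, against 39.7% of all 27305 genes and 34.6% of all 35116 windows. The CHR element was found for SUN2 and LMNB2 (2 of 5 genes), for 8 of the 33 others and for 18.2% of all genes (15.2% of windows). The E2F letters were found for 0 of 5, for 3 of 33 and for 3.79% of all genes (3.16% of windows), and the interferon element core for TMPO, for 1 of 33, NUP160, and for 4.38% of all genes (3.57% of windows). The 5 lower genes have 9 windows and the 33 others have 48. By window, the CCAAT box stood in 5 of the 9 (55.6%) and 17 of the 48 (35.4%). The CHR element stood in 2 (22.2%) and 10 (20.8%), and the E2F letters in 0 and 3 (6.25%). The interferon core stood in 2 (22.2%), both of TMPO, and in 1 (2.08%). In the printed windows 0 bases lay in overlapping matches. These matches describe letters in the windows and do not show that a factor binds there.

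In the Y complex, the outer scaffold of the pore, 1 of 8 genes passed 1.5-fold. NUP160, one of its core subunits, read 842 with miR-129-3p and 486 in control, a difference of 0.77 (1.71-fold higher). A further NUP160 probe set read 102 with miR-129-3p and 56.3 in control (0.71), and passed the filter only through the array where it is high. The last one, under the filter on both arrays, read 76.7 with miR-129-3p and 64.1 in control (0.21). The mean over all 3 NUP160 probe sets was 0.56, just under the limit.

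Other subunits of the same complex lay on the other side of 0 or close to it. NUP43 read 830 with miR-129-3p and 1236 in control (-0.57), just within 1.5-fold, and NUP107 read 1190 with miR-129-3p and 1572 in control (-0.40). SEH1L, which also serves in the GATOR2 complex of nutrient sensing, differed by -0.33 and -0.41 on its 2 probe sets. NUP37 differed by -0.25, NUP133 by -0.12 and NUP85 by -0.02. SEC13, shared with the COPII coat of secretory vesicles, read 3390 with miR-129-3p and 3309 in control (0.03). The 8 subunits measured ranged from -0.57 to 0.77.

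The inner ring and the central channel showed small differences. All 5 inner ring genes were within 1.5-fold, between -0.27 (NUP155) and 0.37 (NUP205). NUP205, a large scaffold protein, read 1252 with miR-129-3p and 968 in control, and its 2 probe sets gave 0.37 and 0.36. NUP188, its paralog, was at -0.06, NUP93 at 0.02 and NUP35 at 0.04. The channel proteins NUP54, NUP58 and NUP62, whose disordered phenylalanine-glycine repeats form the transport barrier, differed by -0.10, 0.06 and 0.10. NUP54 read 1452 with miR-129-3p and 1554 in control.

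On the cytoplasmic face, 0 of 7 genes passed 1.5-fold, counting NUP98, which is found on both faces. NUP214, a docking site for export complexes, read 670 with miR-129-3p and 463 in control (0.52), and its 3 probe sets lay between 0.00 and 0.52. NUP88, its partner, read 946 with miR-129-3p and 1103 in control (-0.22). RANBP2, a filament protein with SUMO ligase activity, read 1383 with miR-129-3p and 1541 in control (-0.15), with 4 probe sets between -0.30 and -0.15.

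NUP98 and its mRNA export partner RAE1 are of interest here because NUP98 is known as an interferon-inducible gene in human cells. NUP98 read 651 with miR-129-3p and 828 in control (-0.34), and its 3 probe sets lay between -0.34 and -0.14. RAE1 read 1027 with miR-129-3p and 1346 in control (-0.39), and -0.29 on its other probe set above the filter. Both were below 0 on each of their probe sets above the filter and within 1.5-fold. NUP42 (0.14) and AAAS (0.04), the gene of ALADIN, mutated in triple A syndrome, each rested on 1 probe set.

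The nuclear basket genes were close to 0. TPR, the long coiled-coil protein of the basket, read 3420 with miR-129-3p and 2960 in control (0.21), and its 5 probe sets lay between -0.02 and 0.24. NUP153, which anchors the basket, differed by -0.03 and NUP50, a cofactor of import, by -0.01.

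Of the pore membrane proteins, 3 of 4 passed the signal filter and all 3 stayed within 1.5-fold on the probe set used. NDC1, which tethers the scaffold to the membrane, read 963 with miR-129-3p and 1227 in control (-0.34), but its other probe set gave 0.31. NUP210 read 310 with miR-129-3p and 445 in control (-0.50). Its 4 probe sets above the filter ranged from -0.76 to -0.18, with 1 past 1.5-fold, and a dim one gave 0.06. POM121 read 133 with miR-129-3p and 83.6 in control (0.58), just under the limit, and passed the filter only through the miR-129-3p array. The remaining 3 members, NUP210L, NUP62CL and the pseudogene NUP210P1, had signals of 47.0 or less with miR-129-3p and 34.0 or less in control.

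**Figure D3:**
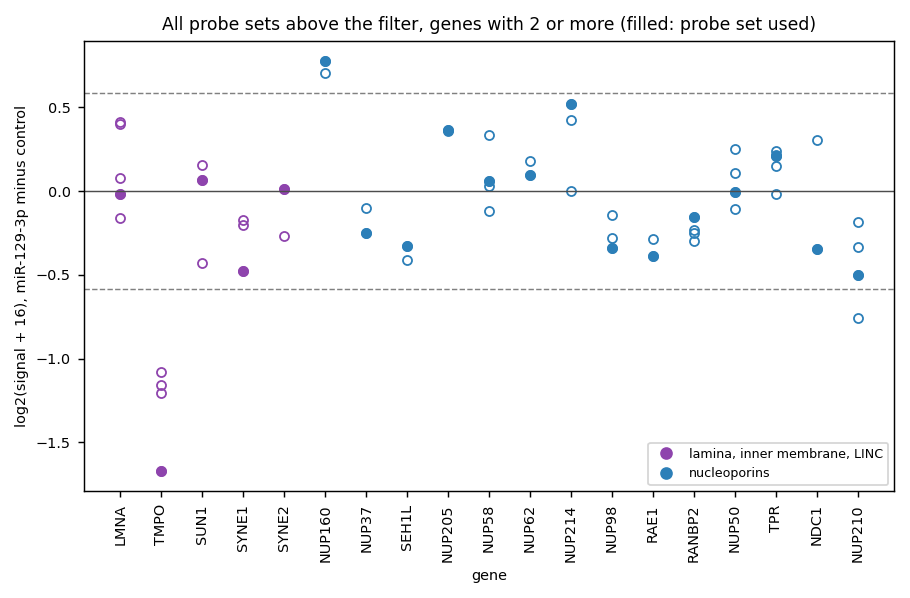
Difference on the log2(signal + 16) scale, miR-129-3p minus control, of every probe set above the filter for the 19 genes with at least 2 such probe sets; filled points are the probe sets used for the gene value and dashed lines mark 1.5-fold. The 4 TMPO probe sets lie between -1.67 and -1.08, both NUP160 probe sets lie above the upper line, and the NDC1 probe sets lie on opposite sides of 0.

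Different probe sets of a member gave similar differences in most cases. Over the 19 members with at least 2 probe sets above the filter, the pooled SD of the log2 differences was 0.20 (58 probe sets), against 0.37 over 6179 genes of the whole array. This spread lies within arrays and does not include the spread between cultures. Counting probe sets in place of genes, 8 of 23 lamina, membrane and LINC probe sets above the filter were at least 1.5-fold lower and 0 higher. Of these 8, 4 are probe sets of TMPO, of which 2 entered only through the control array. For the pore genes 1 of 56 was lower, a NUP210 probe set, and 2 were higher, both of NUP160, of which 1 entered only through the miR-129-3p array. Over all 23707 probe sets with 1 gene symbol that passed the filter, 11.1% were lower and 16.7% higher by as much. The other 21 measured members rest on 1 probe set above the filter, including LMNB1, LMNB2, SUN2 and EMD, so no second probe set bears on those 4.

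The soluble transport machinery uses the pores: karyopherins carry cargo, and the GTPase Ran sets the direction. Of a list of 36 such genes, 32 were measured. Lower by 1.5-fold or more were 6 (18.8%), and 2 (6.25%) were higher by as much, around a median of -0.02, against 10.8% lower and 17.3% higher over all genes. At 2-fold, 0 were lower and 0 higher. IPO5, an import receptor for ribosomal proteins and histones, read 1783 with miR-129-3p and 3492 in control (-0.96), and 4 of its 5 probe sets above the filter were at least 1.5-fold lower. Of those, the probe set at -1.12 passed the filter only through the control array, where it is high. RANBP1, a Ran cofactor, differed by -0.74, and by only -0.26 on its other probe set above the filter. KPNA2, an importin alpha whose level follows proliferation in human cells, differed by -0.71, with -1.46 on its other probe set.

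The lower calls also took in RAN itself, at -0.67 but 0.13 on its other probe set, IPO7 at -0.67 and KPNA4 at -0.62, each also with a probe set above 0. RANBP3 (0.76) and IPO13 (0.59) were the 2 higher genes. The other RANBP3 probe sets above the filter gave 0.20 and 0.47, within 1.5-fold, and IPO13 was just past the limit on a single probe set. XPO1, the main exporter of proteins, read 4418 with miR-129-3p and 4468 in control (-0.02), and KPNB1, importin beta, read 4039 with miR-129-3p and 5108 in control (-0.34). The 6 KPNB1 probe sets lay between -0.62 and -0.16, with the lowest past 1.5-fold.

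Of a list of 28 other nuclear envelope genes, 23 were measured. Lower by 1.5-fold or more were 2 (8.70%), and 3 (13.0%) were higher by as much, around a median of 0.14, against the same 10.8% and 17.3% over all genes. At 2-fold, 0 were lower and 1, POM121C, higher. ANKLE2 read 1073 with miR-129-3p and 1879 in control (-0.80), and -0.79 on its other probe set above the filter. With the mean of all its probe sets, which takes in a dim one, ANKLE2 was within 1.5-fold. VRK1, the kinase that releases BAF from chromatin, read 312 with miR-129-3p and 516 in control (-0.70). ANKLE2 acts opposite to VRK1 in control of BAF, by promoting its dephosphorylation.

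TOR1AIP1, the gene of the lamina-binding protein LAP1, read 2690 with miR-129-3p and 1695 in control (0.66), with its 4 probe sets above the filter between 0.35 and 0.93. On these it differed in the opposite direction to TMPO, which encodes the LAP2 proteins. With the mean of all its probe sets, which takes in a dim one, TOR1AIP1 was within 1.5-fold. FNTB, a subunit of the farnesyltransferase that modifies prelamin A and B-type lamins, read 178 with miR-129-3p and 94.7 in control (0.81), and passed the filter only through the miR-129-3p array. ZMPSTE24, the protease that matures prelamin A, read 2724 with miR-129-3p and 2472 in control (0.14). POM121C read 809 with miR-129-3p and 362 in control (1.13, 2.18-fold higher). It is a near-identical copy of POM121, so signals of the 2 may be shared.

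**Figure D4:**
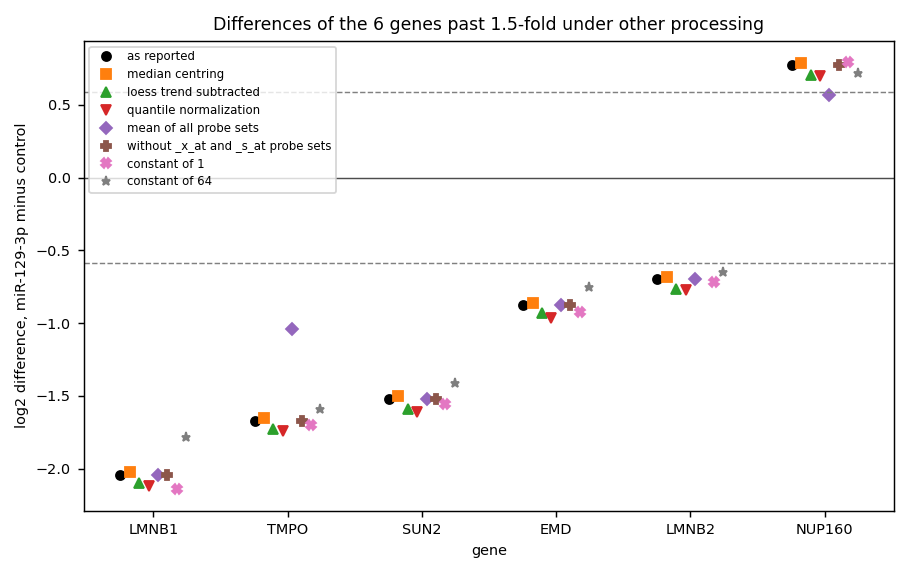
Log2 difference, miR-129-3p minus control, of the 6 members past 1.5-fold, under the processing as reported (black) and 7 other settings; each point is 1 setting and dashed lines mark 1.5-fold. The 5 lower genes stay below the lower line wherever a value could be had, LMNB2 having no value without _x_at and _s_at probe sets, and NUP160 drops to 0.56 with the mean of all its probe sets.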

How the data were processed

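The deposited table holds 1 intensity per probe set and array on a linear scale. MAS5 and RMA are the tools in the submitters' processing notes. Which of them gave these values, the scaling between arrays and any background correction are not given in the sources used here, and dim signals depend on those steps. Of 54613 probe sets, 41091 had 1 gene symbol in the platform annotation, 1801 had several and 11721 were not listed there and are unnamed here; gene IDs of all 43 members matched the GRCh38.p14 gene table.

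From these values log2(signal + 16) was computed. Each gene was read from the probe set whose log2 level, averaged over both arrays, was highest, and was kept if either array reached 100. A hyphen was not read as a suffix, so NUP50-DT and NUP133-DT are not members. With 1 array a group there was no test; counts past 1.5-fold, and for gene lists 2-fold, were set against shares over all genes or probe sets. The depth of an array cannot be given, and the number of arrays limits the precision.

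Named are members past 1.5-fold, the lamins, the member with the highest level in each structural group, and up to 3 genes at each end of 2 lists of other genes; further members are given for completeness. MKI67, CCNB1, RAN, IPO7, KPNA4, XPO1, KPNB1 and ZMPSTE24 were added after their values were seen. The members, lists and motifs were chosen with earlier results of these data known. Code was checked on data with planted differences. Alternatives were 3 scalings, 2 filters, 2 probe set rules, constants of 1 and 64, and a 2-fold limit. Python 3.11.15 was used, with statsmodels 0.14.6 for loess, matplotlib 3.10.9 for plots, and pandas 2.3.3 and numpy 2.4.6.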

Additional observations from a re-analysis of the deposited data

How the results depend on the processing

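Over 10 alternatives, the lower lamina calls held except at a 2-fold limit, where 3 of the 5 remained (LMNB1, TMPO and SUN2, so 3 members and 3 lamina, membrane and LINC genes), and for LMNB2, which has no value without _x_at and _s_at probe sets. The higher count among the members, all pore genes and 1 as reported, was 2 with median centring, with the loess trend subtracted and with a constant of 1, where POM121 joined NUP160, and 0 with the mean of all probe sets and at 2-fold. Lower pore genes numbered 1 with the loess trend subtracted (NUP43) and 2 with quantile normalization (NUP43 and NUP210), against 0 as reported. The median of the 11 lamina, membrane and LINC genes ran from -0.56 to -0.42, that of the pore genes from -0.09 to -0.01, and that of all measured members from -0.18 to -0.05, against -0.11 as reported. TMPO was -1.04 with the mean of all its probe sets, which takes in 1 dim one, and LMNA was 0.41 without _x_at and _s_at probe sets. Lower transport genes numbered 2 in place of 6 with the mean of all probe sets. Higher transport genes numbered 1 in place of 2 with the loess trend subtracted, quantile normalization and the mean of all probe sets. The same held without _x_at and _s_at probe sets and with a constant of 64. At 2-fold both transport counts were 0. Among the other nuclear envelope genes, the lower count was 1 in place of 2 with the mean of all probe sets. Their higher count was 2 in place of 3 with that mean, with a mean signal of 200 or more, and without _x_at and _s_at probe sets. At 2-fold these counts were 0 lower and 1 higher. No paired analysis was possible because each group holds 1 array. Without replicates, how far 2 cultures of the same kind would differ is not known, and 4 of the 5 lower genes rest on 1 probe set.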

Other observations

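Transcripts beside the members and probe sets that name several genes gave further values. TMPO-AS1, a noncoding RNA named as antisense to TMPO, read 47.9 with miR-129-3p and 139 in control, a difference of -1.28 on the log2(signal + 16) scale, on the same side as TMPO. It passed the filter only through the control array, where it is high. NUP50-DT read 103 with miR-129-3p and 94.2 in control (0.11). Of the 4 probe sets that name a member with other genes, 0 passed 1.5-fold: that for POM121C and POM121 read 2110 with miR-129-3p and 1433 in control (0.55), that for GET4 and SUN1 read 119 with miR-129-3p and 171 in control (-0.47), that for RANBP2 and its RGPD copies differed by 0.07, and that for IL4I1 and NUP62 was under 100 on both arrays.

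MX2, an interferon-induced protein that sits at nuclear pores in human cells, read 3495 with miR-129-3p and 17.4 in control. It is no member of the pore itself and was chosen after its values were seen.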
